A study of Mus musculus with 4 samples.

Results

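Megakaryocyte-erythroid transcription factors were followed as 8 genes, Gata1, Gata2, Gfi1b, Klf1, Zfpm1, Nfe2, Tal1 and Lmo2, chosen by symbol from the 28692 genes listed in the deposited count tables. All 8 symbols were found once in each of the 4 pools. The cells were hematopoietic stem and progenitor cells (HSPCs) of C57BL/6-CD45.2 male mice, sorted from bone marrow as Lin-, Sca1+, cKit+ and Flt3-, and sequenced with 10x Genomics version 2 chemistry. Young mice were 2 to 3 months old and aged mice, labelled old, 17 to 18 months old. Each age had 2 pools, A and B, made of 2 (young A), 3 (young B), 3 (aged A) and 2 (aged B) animals, so the replicate is a pool of mice and not a mouse. The letter marks the capture platform, so that each platform handled 1 pool of each age.

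These factors form an interlocking set. Gata1 and Gata2 bind the same GATA sequence: Gata2 is used in stem and early progenitor cells and in mast cells, and Gata1 takes over as erythroid and megakaryocyte cells mature. Zfpm1 (also known as Fog1) is a cofactor that GATA factors recruit. Tal1 and Lmo2 belong to a complex that bridges E-box and GATA sites. Klf1 activates erythroid genes through CACCC boxes, Gfi1b is a repressor needed for red cell and platelet formation, and Nfe2 is a subunit of a factor that drives platelet production and globin genes.

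On the GRCm38 assembly Gata1 (ENSMUSG00000031162) lies on the minus strand at chrX:7959260-7978071, Gata2 (ENSMUSG00000015053) on the plus strand at chr6:88193891-88207032, and Gfi1b (ENSMUSG00000026815) on the minus strand at chr2:28609450-28621982. Klf1 (ENSMUSG00000054191) lies on the plus strand at chr8:84901928-84905291, Zfpm1 (ENSMUSG00000049577) on the plus strand at chr8:122282141-122337251, and Nfe2 (ENSMUSG00000058794) on the minus strand at chr15:103248212-103258403. Tal1 (ENSMUSG00000028717) lies on the plus strand at chr4:115056426-115071755 and Lmo2 (ENSMUSG00000032698) on the plus strand at chr2:103957986-103981878. In the annotation Zfpm1 overlaps the gene Gm20388 on its own strand, so reads of the overlap could belong to either and its counts are uncertain to that extent. Lmo2 overlaps 4931422A03Rik on the opposite strand.

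The sequences just upstream of Gfi1b and Klf1 are shown because those genes had the largest differences with age and between cell classes, and because both hold the letters that GATA factors are known to bind. The RefSeq table of starts (GRCm38.p6) held 6 of the 8 genes, without Nfe2 and Lmo2. Capitals mark GATAA, read on the gene's strand, or its reverse complement TTATC. The first runs from chr2:28621983-28622232 (minus strand, outside the annotated exons) with the match 119 bases before the start, and the second from chr8:84901732-84901927 (plus strand, ending where the first annotated Klf1 exon begins) with the match 80 bases before the RefSeq start.
Gfi1b: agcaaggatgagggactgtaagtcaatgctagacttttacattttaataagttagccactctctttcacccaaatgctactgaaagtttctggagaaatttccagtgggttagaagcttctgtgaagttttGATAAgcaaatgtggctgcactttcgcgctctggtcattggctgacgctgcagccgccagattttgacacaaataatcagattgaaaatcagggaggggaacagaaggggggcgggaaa
Klf1: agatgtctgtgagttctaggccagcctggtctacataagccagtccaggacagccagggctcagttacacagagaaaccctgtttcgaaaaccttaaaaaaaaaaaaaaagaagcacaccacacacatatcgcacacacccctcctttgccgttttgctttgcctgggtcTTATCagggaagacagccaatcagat
The letters GATAA or TTATC stood in 22.6% of the 32851 RefSeq promoters over the 250 bases before the start, so a match is common. The upstream windows of Gata1, of Zfpm1 and of both starts of Gata2 held none. For Tal1 the first start held 1 and the second held none. A match describes these letters only and says nothing of binding in these cells.

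After removal of cells far from the mean depth, 14915 of 15566 cells remained, with 16399999 (young B) to 36446168 (young A) unique molecular identifiers (UMIs, 1 for each captured transcript) in a pool and a median of 5674 to 6719 UMIs in a cell. Reads per cell differed crosswise, the submitters giving a deeper sequencing for aged A and young B than for the other pools. RNA of mature red cells (6 haemoglobin and related genes) ran at 82.3 to 1063 CPM (UMIs scaled to a total of 1000000 in the pool or class), highest in young B, that of plasma cells (4 genes) at 51.3 to 1254 CPM, highest in aged A, and that of macrophages (4 genes) at 7.39 to 12.1 CPM, highest in young B. Between 10 and 29 cell barcodes were shared by any 2 pools, at most 0.813% of the smaller pool. The free-text descriptions of young B and aged A name the other age, while their source names and titles give the same age, and the groups used here come from the titles.

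The 8 factors spanned a wide range of levels in the whole pools. Lmo2 was highest, at 1069 CPM in young A, 559 in young B, 1355 in aged A and 1036 in aged B. Nfe2 (175, 199, 223 and 218 CPM in the same order) and Gata2 (190, 74.0, 253 and 115 CPM) came next, and their ranges overlapped. Tal1 followed at 62.1, 32.3, 67.2 and 41.5 CPM, and Gfi1b at 34.6, 27.8, 63.2 and 57.0 CPM. Zfpm1 had 31.7, 8.05, 34.9 and 22.6 CPM, Gata1 18.1, 14.9, 15.7 and 8.95 CPM, and Klf1 18.7, 12.4, 13.2 and 6.43 CPM, so that Klf1 and Gata1 were the least abundant. These 3' tag counts need no length correction, but the order of neighbouring genes did not exceed the spread between pools.

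Several factors differed between the A and B pools as much as between the ages, and the letter marks both the facility and separate pools of mice, which cannot be told apart. Zfpm1 was 1.98 higher on the log2 scale in young A than in young B, Gata2 1.36 higher, Tal1 0.94 and Lmo2 0.93, and in the aged pools the same differences were 0.63, 1.14, 0.69 and 0.39. Nfe2 differed least between the letters, by -0.19 in young and 0.03 in aged pools, and Gfi1b differed by 0.32 and 0.15. The age fits reported here kept the letter as a block.

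**Figure D1:**
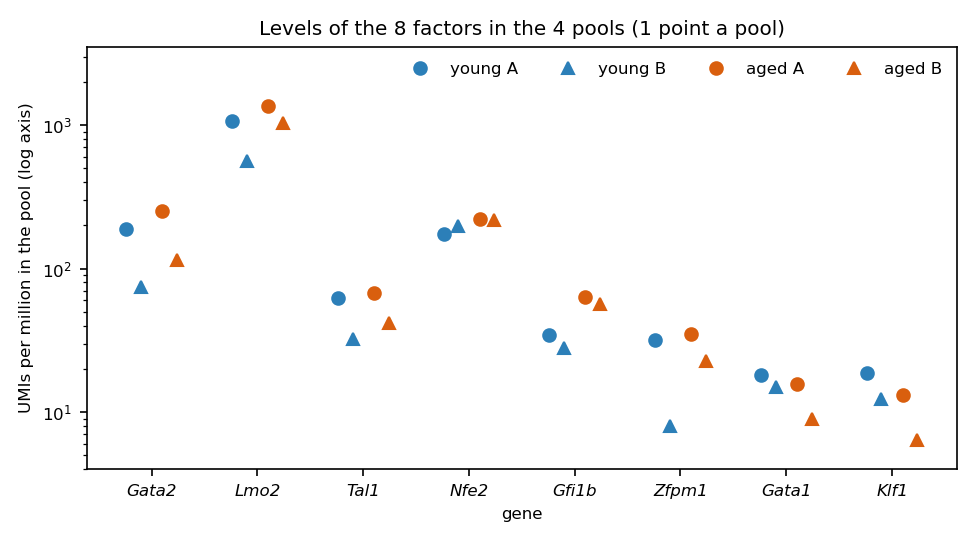
Level of each factor in the 4 whole pools, in CPM on a log axis, with 1 point for each pool coloured by age and shaped by platform. Lmo2 lies between 559 and 1355, Klf1 and Gata1 lie below 19, and the Gfi1b points of the aged pools (63.2 and 57.0) stand above those of the young pools (34.6 and 27.8).

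To see in which cells the factors were transcribed, cells were classed by marker genes that included none of the 8. A cell passed a list with at least 3 UMIs over at least 2 of its genes. The lists first set for this purpose proved unselective. Car2, a carbonic anhydrase on the erythroid list, had a UMI in 97.6% of cells, Prtn3, a granule protease on the neutrophil list, in 91.3%, and the erythroid list passed 57.5% of all cells. These wide lists gave 4804 erythroid-marker, 290 megakaryocyte-marker and 1384 neutrophil-marker cells, against 3952 lineage-negative cells that passed no lineage list. Cells passing more than 1 lineage list were set aside. Of these, 804 passed the erythroid and megakaryocyte lists alone and 3516 passed other mixes. The 3516 cells held 47.8% of all Gata1 and 38.1% of all Klf1 UMIs, and the 804 cells held 14.2% and 5.75%.

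Even with the wide lists, Klf1 and Gata1 were higher in erythroid-marker than in lineage-negative cells. Klf1 had 31.6, 36.4, 21.0 and 9.23 CPM in erythroid-marker cells of young A, young B, aged A and aged B, against 5.48, 1.99, 3.42 and 1.62 CPM in lineage-negative cells of the same pools. The classes did not overlap, and Klf1 rose by 2.92 on the log2 scale (SE 0.18, edgeR adjusted p = 3.07e-11). Gata1 had 17.0, 20.7, 18.1 and 6.88 CPM against 5.14, 2.19, 4.97 and 2.25 CPM, and rose by 2.04 (SE 0.19, adjusted p = 9.23e-08). Both calls held in all 11 alternatives run on these lists. Lmo2 fell by 0.12 (SE 0.02, adjusted p = 0.00517), a call lost without young A (adjusted p = 0.117). Of all genes tested in that comparison 3.3% were called. Gfi1b missed the threshold with a difference of 0.25 (adjusted p = 0.0646), as did Zfpm1 (0.14), Tal1 (0.09), Gata2 (0.05) and Nfe2 (-0.08).

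The other wide classes moved fewer factors. In megakaryocyte-marker cells Gata1 rose by 1.91 (SE 0.40, edgeR adjusted p = 0.000876), and the call was lost without aged B (adjusted p = 0.188). Lmo2 fell there by 0.19 (SE 0.05, adjusted p = 0.00983), a call lost without young A, without aged A and without aged B, and 2.49% of genes were called. In neutrophil-marker cells Gata2 fell by 0.31 (SE 0.08, adjusted p = 0.0287) and Lmo2 by 0.21 (SE 0.06, adjusted p = 0.0335), with 4.23% of genes called, and both calls were lost without young A, without young B and without aged B. Among lineage-negative cells, those with stem markers had more Lmo2 than those without (0.15, SE 0.04, adjusted p = 0.0102, with 4.44% of genes called), a call lost without young A (adjusted p = 0.0531) and without young B (adjusted p = 0.056).

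A second set of lists left out the 9 lineage genes found in at least 20% of cells. It was picked from 6 versions after class sizes and levels of the 8 factors had been seen, so its values are a description with no test. Many are given with a standard error, and some with their range over the other versions and settings. These narrow lists gave 456 erythroid-marker cells (3.06% of cells), 164 megakaryocyte-marker, 122 mast-marker, 221 neutrophil-marker and 84 lymphoid-marker cells, and left 13518 lineage-negative cells, of which 8100 passed the stem list (Mecom, Hlf, Fgd5 and others). Again 40 cells of the erythroid and megakaryocyte lists and 310 cells of other mixes were set aside. The mast list passed 410 cells in all and the neutrophil list 500. The 310 cells held 10.3% of all Gata1 and 7.14% of all Klf1 UMIs. In the erythroid list 114 passing cells had exactly 3 UMIs and 664 cells missed it with 2 UMIs, so the class is a range of marker levels. The classed cells were deeper, with a median of 8137 UMIs in erythroid-marker cells against 6059.5 in lineage-negative cells. Young B gave 10 of the megakaryocyte-marker cells.

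Klf1 was concentrated in the narrow erythroid-marker class. Its level there was 213 CPM ± 36.2 (SD, n = 4 pools) against 3.603 ± 1.57 in lineage-negative cells, and the lowest erythroid-marker pool (194 CPM) stood far above the highest lineage-negative pool (5.57 CPM). The fitted difference was 5.90 on the log2 scale (SE 0.16), and it ranged from 5.32 to 6.38 over 12 alternatives. The erythroid-marker cells held 61.3% of all Klf1 UMIs and 3.84% of all UMIs. The far more numerous lineage-negative cells held 25.4% of all Klf1 UMIs. Cells were then thinned to 3000 UMIs, and those with fewer were left out. Of the erythroid-marker cells of all pools together, 44.4% (199 of 448) had a Klf1 UMI (95% exact binomial interval 39.8% to 49.2%, counting error only). By pool the share was 44.9% in young A, 63.0% in young B, 32% in aged A and 46.3% in aged B, a wider spread than that interval. Over all pools together the share was 1.07% in lineage-negative and 0.913% (2 of 219) in neutrophil-marker cells. Whether these low shares are background was not tested.

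Gata1, the partner of Klf1 in erythroid gene activation, was shared more widely. It reached 133 CPM ± 24.97 in erythroid-marker, 101 ± 31.2 in mast-marker and 66.6 ± 13.3 in megakaryocyte-marker cells, against 6.33 ± 0.44 in lineage-negative cells (SD, n = 4 pools). No UMI of Gata1 was seen in lymphoid-marker cells, 0 of 74 thinned cells, which allows a share of cells with a UMI of up to 4.05% (3 counts; the exact 95% upper bound is 4.86%). The log2 differences from lineage-negative cells were 4.42 (SE 0.13, 3.81 to 4.60 over the alternatives) in erythroid-marker, 3.81 (SE 0.30, 2.28 to 3.97) in mast-marker and 3.34 (SE 0.25, 2.78 to 3.45) in megakaryocyte-marker cells. Between erythroid-marker and megakaryocyte-marker cells Gata1 differed by 0.96 (SE 0.16) and Klf1 by 3.66 (SE 0.21), both higher in erythroid-marker cells of all 4 pools.

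**Figure D2:**
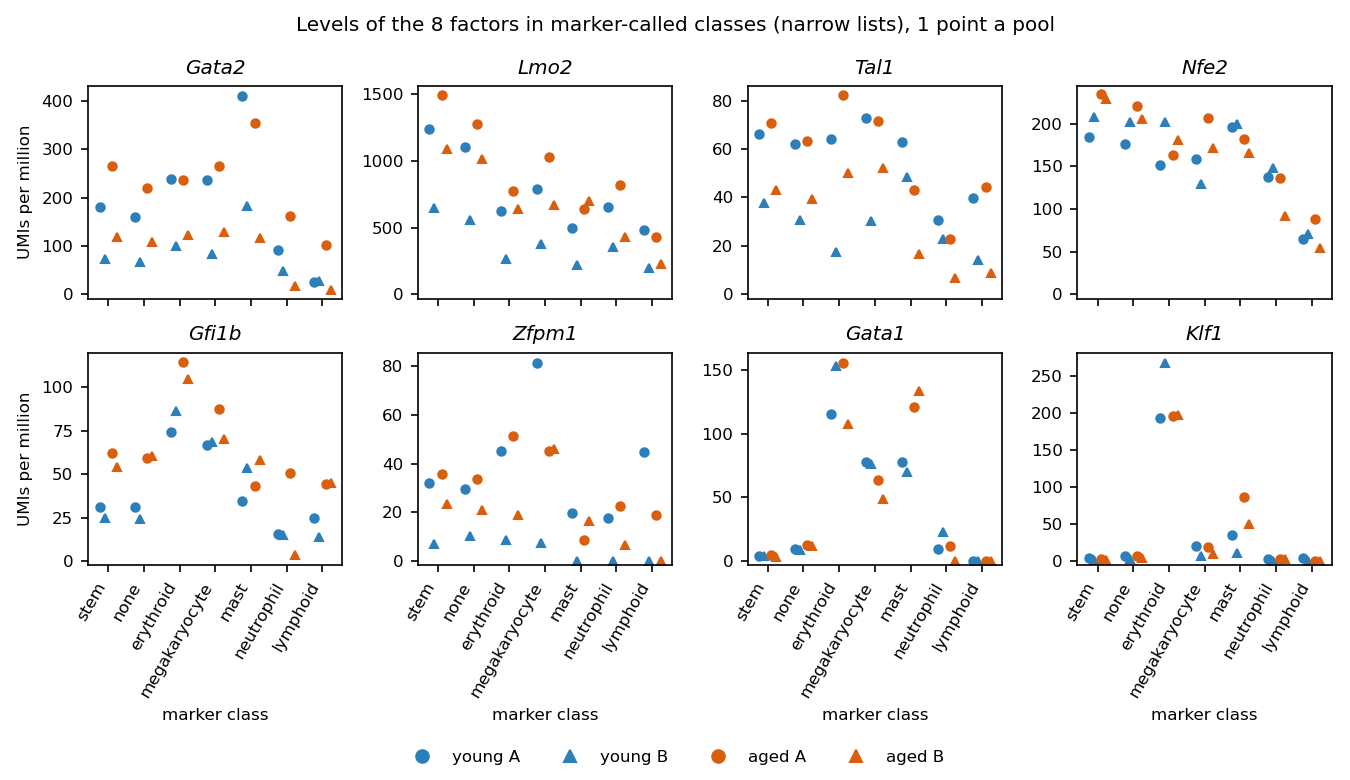
Level of each factor (CPM in the class, linear axes that differ between panels) in cells classed by the narrow marker lists, with 1 point for each pool. Klf1 stands out in erythroid-marker cells (194 to 268 in the 4 pools), Gata1 in erythroid-, mast- and megakaryocyte-marker cells, and the Lmo2 points of stem-marker cells run from 650 to 1497.

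Klf1 transcripts were also counted in mast-marker cells, at 34.8, 10.8, 86.5 and 49.9 CPM in young A, young B, aged A and aged B, each above the lineage-negative cells of its pool. The log2 difference was 3.25 (SE 0.39), but the choice of list moved it widely, from 1.12 to 3.79. These levels rested on 21, 2, 10 and 6 UMIs. After thinning, a Klf1 UMI was found in 6 of 70 and 1 of 22 mast-marker cells of young A and young B and in 0 of 14 and 0 of 12 of aged A and aged B, which at these numbers allow shares of up to 21.4% and 25%. In megakaryocyte-marker cells Klf1 had 13.8 CPM ± 6.36 (SD, n = 4 pools) and a difference of 1.91 (SE 0.42), from 28 UMIs in all.

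Gfi1b, the repressor, was higher in both the erythroid-marker and the megakaryocyte-marker class of every pool. Its level was 94.98 CPM ± 18.0 in erythroid-marker and 73.4 ± 9.61 in megakaryocyte-marker cells against 43.4 ± 18.2 in lineage-negative cells (SD, n = 4 pools). The log2 differences were 1.23 (SE 0.13, 1.08 to 1.70 over the alternatives) and 0.72 (SE 0.17, 0.47 to 0.89). In neutrophil-marker cells Gfi1b was lower in 4 of 4 pools, by -0.82 (SE 0.25, -1.28 to -0.40).

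Zfpm1, the GATA cofactor, differed by 0.97 in megakaryocyte-marker cells (SE 0.21, 0.51 to 1.19 over the alternatives) and by 0.45 in erythroid-marker cells (SE 0.17, 0.25 to 0.61), and was higher in 3 of 4 pools in each. In megakaryocyte-marker cells it had 81.3, 7.60, 45.2 and 45.9 CPM in young A, young B, aged A and aged B, from 69, 1, 17 and 15 UMIs.

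Gata2 had its highest mean level in mast-marker cells, at 411, 184, 354 and 116 CPM in young A, young B, aged A and aged B, from 70, 24, 15 and 13 cells. The whole pools had 190, 74.0, 253 and 115 CPM in that order, so aged B differed little. Lineage-negative cells had a mean of 153 CPM ± 79.9 (SD, n = 4 pools). Gata2 was higher in mast-marker than in lineage-negative cells of every pool, with a log2 difference of 0.82 (SE 0.16, 0.54 to 1.78 over the alternatives). In erythroid-marker cells the difference of 0.30 (SE 0.11) changed sign in 3 of 12 alternatives and is not read as a direction. Gata2 was lower in all 4 pools in neutrophil-marker cells (-0.85, SE 0.16) and in lymphoid-marker cells (-1.78, SE 0.29), and stem-marker cells had 0.17 more than cells passing no list (SE 0.05, 4 of 4 pools).

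Lmo2 was lower in every lineage class than in lineage-negative cells, in 4 of 4 pools each. Stem-marker cells had 1118 CPM ± 355 (SD, n = 4 pools). The log2 differences were -0.87 in erythroid-marker (SE 0.09), -0.65 in megakaryocyte-marker (SE 0.09), -1.20 in mast-marker (SE 0.13), -0.87 in neutrophil-marker (SE 0.10) and -1.56 in lymphoid-marker cells (SE 0.17), and none changed sign in any alternative run on the narrow lists. Its complex partner Tal1 was at 0.09 in erythroid-marker (SE 0.14) and 0.11 in megakaryocyte-marker cells (SE 0.18), the first with a change of sign in 4 of 12 alternatives, and at -1.16 in neutrophil-marker cells (SE 0.22). Nfe2 was at -0.59 in neutrophil-marker (SE 0.13) and -1.45 in lymphoid-marker cells (SE 0.24). In megakaryocyte-marker cells, the branch Nfe2 is known for, it was lower in 4 of 4 pools, by -0.34 (SE 0.12, -0.44 to -0.27 over the alternatives). The fall was not particular to that class. Nfe2 was also lower in 4 of 4 pools in erythroid-marker cells (-0.21, SE 0.10) and in 3 of 4 in mast-marker cells (-0.20, SE 0.16). Between erythroid-marker and megakaryocyte-marker cells it differed by 0.05 (SE 0.13), with 2 pools in each direction.

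Among the lineage-negative cells, those with stem markers had less Gata1 (a difference of -1.53, SE 0.14) and less Klf1 (-0.86, SE 0.18) than cells that passed no list at all, in all 4 pools. Gata1 had 3.97 CPM ± 0.65 in stem-marker and 10.9 ± 1.97 in no-list cells (SD, n = 4 pools), and was found in 0.960% and 2.40% of thinned cells. Neutrophil-marker cells had 11.3 CPM ± 9.46 and 1.83%, from 27 UMIs in all. How much of these low levels is background was not tested.

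RNA of mature red cells moved with the erythroid-marker class. All 6 genes of that list were higher there than in lineage-negative cells of the narrow lists, by a median of 5.30 on the log2 scale, and its part in the Klf1 and Gata1 differences was not tested. With the wide lists the median of the 5 genes tested was 1.74, and none was called.

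**Figure D3:**
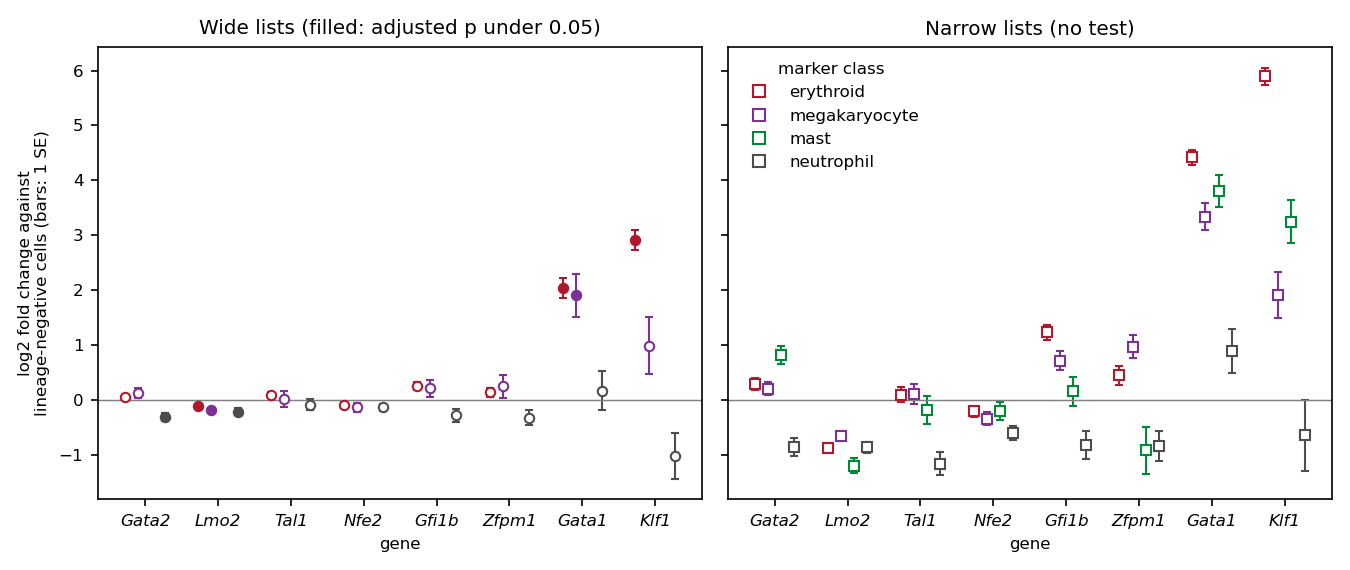
Difference of each factor between a marker class and lineage-negative cells, in log2 units with bars of 1 standard error, from fits of pool sums with pool as a block, for the wide lists (circles, filled where the adjusted p was under 0.05) and the narrow lists (squares, with no test). Klf1 and Gata1 lie farthest above 0 in erythroid-marker cells of both sets (2.92 and 2.04, then 5.90 and 4.42), and Lmo2 lies below 0 in each class shown.

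Detection within single cells was compared at 1 depth. In cells thinned to 3000 UMIs, 25.9% to 31.5% of cells with a Klf1 UMI also had a Gata1 UMI, against 1.56% to 3.09% of cells without, in each of the 4 pools. Gfi1b was found in 15.2% and 20.4% of Klf1-positive cells in young A and young B and in 24.3% and 25.9% in aged A and aged B, against 8.80%, 7.01%, 15.9% and 14.99% of the others. Lmo2 was found in 82.8%, 59.3%, 83.8% and 70.4% of Klf1-positive cells against 93.1%, 79.3%, 95.9% and 93.4%. Cells with both GATA factors numbered 120, 12, 67 and 28 in young A, young B, aged A and aged B. Of these, 33.3% in young A, 8.33% in young B, 32.8% in aged A and 35.7% in aged B were erythroid-marker cells of the narrow lists, and of cells with Gata1 alone 34.9%, 31.8%, 39.2% and 20.8%.

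**Figure D4:**
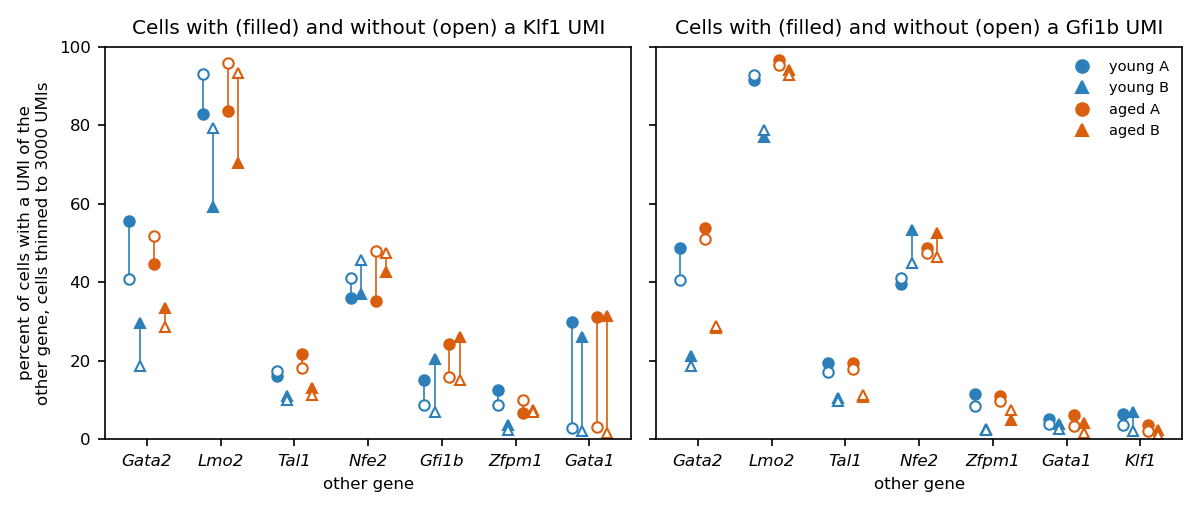
Percent of cells, thinned to 3000 UMIs, with a UMI of each other factor, among cells with (filled) and without (open) a Klf1 UMI on the left and a Gfi1b UMI on the right, by pool. The Gata1 pair is the most separated on the left (25.9% to 31.5% against 1.56% to 3.09%), and Lmo2 is lower in Klf1-positive cells of every pool.

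The genes nearest to each factor were found by Pearson correlation of log2(CPM + 1) over 28 sums (7 narrow classes in 4 pools). The sums of a pool share a library and those of a class share its markers. For Klf1 they were Gm15915 (r = 0.92), Gnb4 (0.87) and Adk (0.85), for Gata1 Adk (0.92), Smim5 (0.87) and Mfsd2b (0.85), and for Gfi1b Epor (0.78), Car2 (0.77), both on the erythroid list, and Gse1 (0.76). For Gata2 they were Ikzf5 (0.88), Nucb1 (0.85) and Ptrf (0.84), for Lmo2 Eid1 (0.90), Lysmd2 (0.88) and Ccdc112 (0.88), and for Zfpm1 Lysmd2 (0.89), Mesdc1 (0.88) and Pla2g12a (0.87). Nfe2 had Ube2l6 (0.89), Sdsl (0.85) and Abcg2 (0.84), and Tal1 had Ctnna1 (0.88), Smyd2 (0.83) and Tlk1 (0.82). Over the 24 sums of the wide lists the nearest gene of each factor was another, for example Plk4 (0.84) for Gata1, Car1 (0.82) for Klf1 and Sdpr (0.93) for Gfi1b.

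With age, none of the 8 factors passed the threshold in whole pools, where 2.03% of 13555 genes did. In bulk sums of this kind, fewer cells of a type and less RNA in each cell cannot be told apart. Gfi1b had the largest difference, 0.90 on the log2 scale higher in aged cells (SE 0.17, edgeR adjusted p = 0.0839), with both aged pools (63.2 and 57.0 CPM) above both young pools (34.6 and 27.8 CPM). Klf1 was at -0.77 (SE 0.19, adjusted p = 0.14) and Gata1 at -0.52 (SE 0.20, adjusted p = 0.293), and the young and aged values of both overlapped. RNA of plasma cells moved with age as well, from a summed 65.4 and 51.3 CPM in young A and young B to 1254 and 299 CPM in aged A and aged B, with 2 of 4 genes called, both higher. The 4 macrophage genes summed to 9.41 and 12.1 CPM in young and 7.65 and 7.39 CPM in aged pools. The 8 genes of the wide mast-cell list summed to 2087 and 2206 CPM in young and 973 and 641 CPM in aged pools. Their median difference was -1.35, with none called and 7 with an unadjusted p below 0.05. Mcpt8 (771 CPM) and Prss34 (1083 CPM) made up most of the young A sum, and the narrow list left both out. Gata1 and Klf1 were also counted in the narrow mast-marker class. Stem-cell markers summed to 444 and 402 CPM in young and 822 and 629 CPM in aged pools, with a median of 0.96 over 7 genes, none called and 5 with an unadjusted p below 0.05. The part of these lists in the differences was not tested. Gfi1b, Klf1 and Gata1 were the 3 factors with an unadjusted p below 0.05. Many genes pass that limit here, since the unadjusted edgeR p of 0.0442 for Gata1 became 0.293 after adjustment. None of the counts of unadjusted p is read as a result. Zfpm1 (0.74), Lmo2 (0.56), Gata2 (0.47), Nfe2 (0.19) and Tal1 (0.18) had adjusted p of 0.326 to 0.707. In fits with a pool left out, which had no block for the letter, some signs changed. Without young B the sign turned below 0 for Gata2 (-0.070), Tal1 (-0.19) and Zfpm1 (-0.13). It did so without aged A for Gata2 (-0.051) and Tal1 (-0.047), and without young A for Nfe2 (-0.023). On each platform taken alone every factor had the direction given here, for Gfi1b 0.87 on platform A and 1.04 on platform B.

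The Gfi1b difference depended on the test. DESeq2 (adjusted p = 0.0447) and edgeR with no filter on low counts (adjusted p = 0.0341) called it in whole pools, where these called 4.01% and 4.07% of genes. In lineage-negative cells of the wide lists it was 1.14 (SE 0.20, edgeR adjusted p = 0.0695), where no factor and 1.21% of genes were called, and it passed the threshold there with no filter (4.25% of genes called) or with a class limit of 5 UMIs (3.08%). DESeq2 called 0 of the 8 in those cells. With edgeR, Gfi1b, Gata2 and Zfpm1 had an unadjusted p below 0.05, a limit that many genes pass (adjusted p = 0.412 for Zfpm1). With the narrow lists, given with no test, it was 1.04 in lineage-negative (SE 0.18), 1.03 in stem-marker and 1.08 in no-list cells. The difference was positive in all of these fits and their alternatives (0.80 to 1.26), without a call that held.

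**Figure D5:**
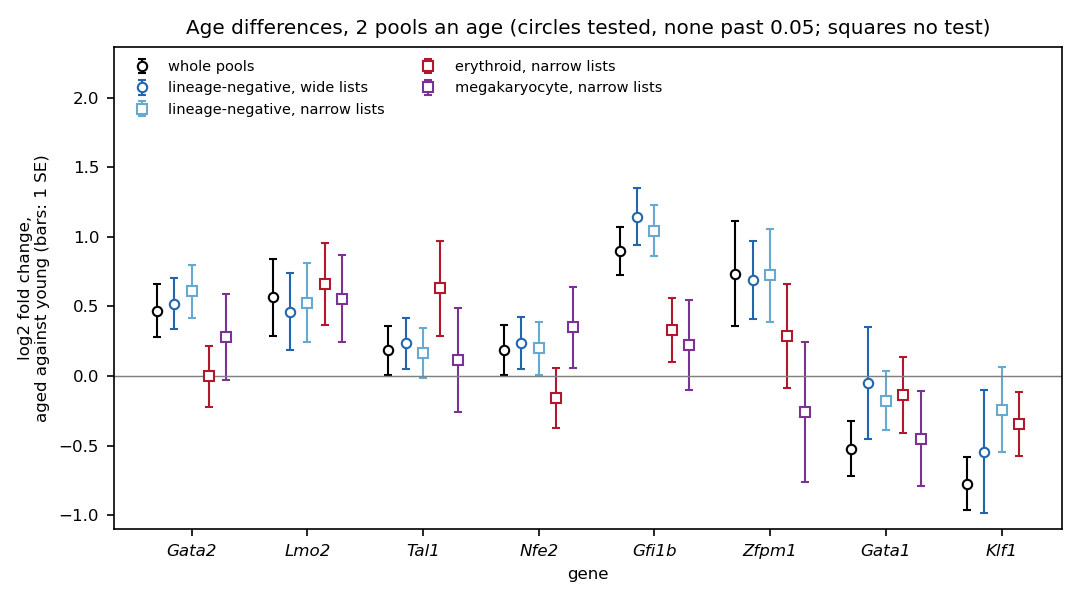
Difference between aged and young pools for each factor, in log2 units with bars of 1 standard error, in whole pools and wide lineage-negative cells (circles, tested, none with an adjusted p under 0.05) and in cells classed by the narrow lists (squares, no test). Gfi1b lies near 1 in whole pools and lineage-negative cells (0.90, 1.14 and 1.04), and the whole-pool values of Klf1 (-0.77) and Gata1 (-0.52) lie below 0.

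The share of cells with a Gfi1b UMI showed the same order. It was 18.6% in young A, 15.6% in young B, 27.8% in aged A and 31.2% in aged B, and after thinning 9.04%, 7.34%, 16.1% and 15.1%. Both aged pools lay above both young pools, and the exact two-sided permutation p of 0.333 is the smallest that 2 pools against 2 allow. Of the other factors, Klf1, Nfe2 and Lmo2 also did not overlap between ages in thinned shares, with the same exact permutation p of 0.333. The share of all genes without overlap is not given here, so no result is read from these factors together. Klf1 had 3.82% and 2.46% in young and 2.35% and 1.30% in aged pools.

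Within the erythroid-marker cells of the wide lists no factor was called by age, where 0.658% of genes were. This class held 1377 of 5189 cells in young A and 570 of 2244 in young B. It held 851 of 3328 in aged A and 2006 of 4154 in aged B, the largest part. The effect of this unequal class size on the differences was not tested. Klf1 was at -1.32 (SE 0.34, edgeR adjusted p = 0.192) and Gfi1b at 0.76 (SE 0.15, adjusted p = 0.128). With Gata2 (0.56, adjusted p = 0.254) these were the 3 factors with an unadjusted p below 0.05, a limit that many genes pass. DESeq2 called 0. In the narrow class Klf1 had 194 and 268 CPM in young A and young B and 195 and 197 CPM in aged A and aged B, so that the ages overlapped, with a difference of -0.34 (SE 0.23). The narrow class itself held 4.37% and 2.50% of young and 3.19% and 1.61% of aged cells on platforms A and B, less in aged than in young cells of either platform, with overlap between the ages. In megakaryocyte-marker cells of the wide lists 6 of the 8 factors could be tested by age, without Gata1 and Klf1, which had too few UMIs. None of the 6 was called by edgeR (0.856% of genes called) or DESeq2, and 0 had an unadjusted p below 0.05.

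Whether an age difference depended on the class was tested as an interaction with the wide lists. None of the 8 factors was called by edgeR (0.226% of genes called) or DESeq2. Gfi1b alone had an unadjusted p below 0.05 (-0.36, SE 0.14, edgeR adjusted p = 0.754). The same term in the narrow lists, with no test, was -0.62 for Gata2 (SE 0.18) and -0.66 for Gfi1b (SE 0.22), an age difference lower in erythroid-marker than in lineage-negative cells. For Gata2 the wide lists gave the other sign (0.04).

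Partners and targets of these factors were counted from fixed lists, chosen with earlier results of these data known. In the whole-pool age fit 2.03% of all genes were called. Of 16 partners (among them Runx1, Fli1, Ldb1 and Spi1), Maff, a small Maf protein that pairs with Nfe2, was higher in aged pools (10.1 and 0.732 CPM in young A and young B, 28.7 and 2.76 CPM in aged A and aged B; 1.57, SE 0.23, edgeR adjusted p = 0.0499). Cebpa, a myeloid factor, was lower (25.4 and 2.74 CPM in young, 9.52 and 0.841 CPM in aged pools; -1.59, SE 0.20, adjusted p = 0.0346). Both were far higher on platform A at each age. In a simulation of this design edgeR made more false calls than its threshold is meant to allow, so the calls of Maff and Cebpa are uncertain. The median of the partners was 0.04, against 0.01 over all genes. Of 16 erythroid targets, such as Epor and Tfrc, none was called with age, none had an unadjusted p below 0.05, and their median was -0.04.

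Of 13 tested megakaryocyte targets 3 rose with age and none fell, where 2.03% of all genes were called. This list too was chosen with earlier results known, and the paper had reported Vwf and Selp as raised with age in these same cells. The count is no independent support. Selp, the platelet adhesion receptor P-selectin, went from 3.70 and 6.04 CPM in young A and young B to 102 and 82.9 CPM in aged A and aged B (4.24, SE 0.28, edgeR adjusted p = 0.0112). Itgb3, a platelet integrin chain, rose by 2.48 (SE 0.19, adjusted p = 0.014) and Vwf by 2.81 (SE 0.18, adjusted p = 0.00999). The median of the list was 0.66. Itga2b, the partner chain of Itgb3, was at 0.45 (adjusted p = 0.31). Of the 11 other genes in the regulon (a set of inferred targets) that the study's tables give Gfi1b, a list made from these same cells and not independent of them, Sdpr, Clu and Gpx3 were called, all higher, and the median was 0.17.

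In the marker classes, targets were counted where they were on no marker list. With the wide lists the median of 10 tested erythroid targets in erythroid-marker cells was 0.11 against -0.01 over all genes. In megakaryocyte-marker cells 2 of 8 megakaryocyte targets rose, the integrin chain Itga2b (1.30, SE 0.16, edgeR adjusted p = 6.56e-09) and Rab27b, a regulator of granule release (0.72, SE 0.19, adjusted p = 0.0184), with a median of 0.04. Stem-marker cells had more of 3 of 8 megakaryocyte targets, Vwf (0.67), Selp (0.42) and Tbxas1 (0.28), than cells passing no list. Of the 16 partners, Cebpa (2.21) and Spi1 (0.33), both myeloid factors, rose in neutrophil-marker cells, and none was called in the erythroid-marker or megakaryocyte-marker class.

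With the narrow lists, again with no test, 11 of 12 erythroid targets lay above 0 in erythroid-marker cells, with a median of 1.24. They included the anion exchanger Slc4a1 (7.05), the cytoskeletal Add2 (4.42), the transferrin receptor Tfrc (2.69) and the haem enzymes Cpox (1.68) and Alad (1.48). Slc4a1 and Add2 rested on few UMIs, with at most 0.529 and 1.07 CPM in a whole pool. Slc4a1 is also on the list of mature red cells. In the other classes 10 erythroid targets had values. Above 0 were 8 in megakaryocyte-marker (median 0.17), 6 in neutrophil-marker (0.05), 4 in mast-marker (-0.17) and 3 in lymphoid-marker cells (-0.47). Of the 8 megakaryocyte targets, 7 lay below 0 in erythroid-marker cells (median -0.98), and 8 of 8 did in neutrophil-marker cells. In megakaryocyte-marker cells 6 of 9 lay above 0 (median 1.30), among them Thbs1 (4.83), Itga2b (2.89) and Rab27b (2.35). The share of all genes above 0 in these fits is not given here, so no result is read from these counts. Fli1, a megakaryocyte factor, was at 0.66 in megakaryocyte-marker and -0.77 in erythroid-marker cells. Spi1, the myeloid factor that opposes Gata1, was at -0.79 and -1.14 in those classes and at 1.08 in neutrophil-marker cells. Gfi1, the close relative of Gfi1b, was at -2.89 and -2.38 in the same pair of classes, where Gfi1b was above 0.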

How the data were processed

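The authors deposited, for each of the 4 pools, a sparse matrix of UMI counts per gene and cell made with Cell Ranger 2.2.0, and the submitters' processing notes name the builds mm10 and GRCm38.p4. The counts as deposited were used, and no other unit. Cells whose log UMI total lay more than 2 SD from its pool's mean were dropped, leaving 14915 of 15566, and no doublet caller was run. UMIs were summed by pool, or by pool and marker class, and tested with the quasi-likelihood test of edgeR 4.0.16 in R 4.3.3 (TMM scaling, filterByExpr, Benjamini-Hochberg adjustment over all genes, threshold 0.05), with DESeq2 1.42.0 as an alternative. Levels and shares were computed in Python 3.11.15 with numpy 2.4.6, scipy 1.17.1 and pandas 2.3.3. Age fits of all 4 pools had the letter shared in the labels as a block, except where stated. Age fits with a pool left out had no block. The deviations of same-letter pools from their age means correlated at 0.58 over 13555 genes. Class fits had the pool as a block. Replicates are pools of mice. The p-values of blocked age fits measure the spread of the age difference between the letters. Those of class fits measure the spread of the class difference between pools.

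A cell entered a lineage class with at least 3 UMIs over at least 2 genes of that list, if it passed no other lineage list. The factors and all lists were chosen with earlier results of these data known. The wide lists could not give a mast-cell fit, since aged B held 1 such cell. The narrow lists were added after seeing the data, as 1 of 6 versions. Their values are given with no test, and calls made with them appear only as an alternative in the closing section. Each SE of a fitted difference is the size of the edgeR difference over the root of its F statistic, so it carries the same information as the test. For the narrow lists the spread between pools is that SE times the root of the number of pools or letter pairs. By rule the text names all 8 factors, genes of the other lists past the threshold, and the 3 genes nearest to each factor. Itga2b by age and the targets and partners named with the narrow lists were chosen after their values were seen. Results for some genes of these lists are not reported here. For thinned shares and co-detection each cell was thinned to 3000 UMIs. Kept cells with fewer UMIs were left out, 0 in young A, 50 in young B, 176 in aged A and 4 in aged B. In a simulation of the whole-pool design (13148 genes), edgeR recovered 85 of the 90 genes given a 4-fold change. It recovered 43 of the 104 given a 2-fold change, and made 36 false calls. These false calls were a larger part of all its calls than the threshold is meant to allow. Age calls in whole pools, above all those near the threshold, are therefore less certain than their adjusted p-values state.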

Additional observations from a re-analysis of the deposited data

How the results depend on the processing

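With 2 pools an age the sign of small age differences was not fixed over the settings. The age fits with a pool left out also dropped the block for the letter. Calls in thin classes rested on single pools. The causes of the changes below were not tested. Without the platform block, no count of age calls changed (0 of 8 factors in whole pools, lineage-negative and erythroid-marker cells, and 0 of the 6 tested in megakaryocyte-marker cells), and Gfi1b was at 0.90 in whole pools (adjusted p = 0.363).

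The number of factors called changed as follows. Age in whole pools went from 0 to 1 with DESeq2 and with no filter on low counts. Age in lineage-negative cells went from 0 to 1 with no filter, with a class limit of 5 UMIs and with the narrow lists (3.07% of genes called). Age in erythroid-marker cells went from 0 to 2 with no filter. The share of all genes called in that fit is not given here, so no result is read from this count. The narrow lists, picked after values were seen, moved the erythroid-marker class from 3 to 6, megakaryocyte-marker from 2 to 6, neutrophil-marker from 2 to 6 and stem-marker from 1 to 4. Those fits called 34.6%, 19.1%, 22.3% and 17.3% of all genes, against 3.3%, 2.49%, 4.23% and 4.44% with the wide lists. DESeq2 gave 1 for megakaryocyte-marker and 0 for neutrophil-marker cells, a class limit of 2 UMIs gave 0 for neutrophil-marker cells, and a limit of 5 UMIs or classes called on thinned cells gave 2 for stem-marker cells. Leaving out 1 pool gave 0 to 2 for megakaryocyte-marker, 0 to 2 for neutrophil-marker and 0 to 1 for stem-marker cells. Thinning changed the age difference in the share of cells to 7.40 percentage points for Gfi1b and 8.65 for Lmo2.

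Of the 8 calls with the wide lists, 6 were lost in at least 1 alternative and none changed sign. DESeq2 and a class limit of 2 UMIs lost Lmo2 in erythroid-marker cells. The 62 uncalled values gave 743 pairs of a value and a setting. Of these pairs 61 changed sign, spread over 28 values, and 30 passed the threshold, those of the narrow lists included. No share of all genes is given for that count, so no result is read from it.

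With a pool left out, age differences in whole pools ran from -0.070 to 1.07 for Gata2, -0.13 to 1.63 for Zfpm1, -0.023 to 0.38 for Nfe2 and -0.19 to 0.54 for Tal1. In lineage-negative cells they ran from -0.55 to 0.44 for Gata1, -0.039 to 1.11 for Gata2, -1.13 to 0.066 for Klf1, -0.0066 to 1.45 for Zfpm1 and -0.21 to 0.69 for Tal1. In erythroid-marker cells they ran from -0.25 to 1.24 for Zfpm1, -0.051 to 0.43 for Nfe2 and -0.19 to 0.37 for Tal1. In megakaryocyte-marker cells they ran from -0.24 to 0.68 for Gata2, -0.14 to 1.16 for Zfpm1, -0.24 to 0.15 for Nfe2 and -0.53 to 0.54 for Tal1. Class differences ran from -0.077 to 0.070 for Tal1 in megakaryocyte-marker, -0.20 to 0.65 for Gata1 in neutrophil-marker and -0.081 to 0.086 for Gfi1b in stem-marker cells, and the age-by-class term from -1.61 to 0.0092 for Klf1, -0.066 to 0.0019 for Nfe2 and -0.28 to 0.050 for Tal1. Age fits with a pool left out had no block for the letter, so letter and age were partly mixed. Fits by age of this kind take the spread of the remaining pool from the pair of the other age.

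A class limit of 2 UMIs turned Gata1 by age in lineage-negative cells (0.066), Nfe2 (0.084) and Tal1 (0.066) by age in megakaryocyte-marker cells, Gfi1b in stem-marker cells (0.18) and the Nfe2 age-by-class term (0.0015). A limit of 5 UMIs turned Gata1 by age in lineage-negative cells (0.17), Gfi1b (-0.12), Nfe2 (0.022) and Tal1 (0.25) by age in megakaryocyte-marker cells, Tal1 in megakaryocyte-marker cells (-0.079), Zfpm1 in stem-marker cells (-0.035) and the age-by-class terms of Gata2 (-0.022) and Tal1 (0.039). Thinned classes turned Zfpm1 (-0.22) and Nfe2 (0.086) by age in megakaryocyte-marker cells, Gata1 in neutrophil-marker (-0.41) and Zfpm1 in stem-marker cells (-0.039), and the terms of Gata2 (-0.24) and Lmo2 (-0.0043). With no filter Tal1 turned in megakaryocyte-marker cells (-0.018), and with DESeq2 Gfi1b in stem-marker cells (0.012).

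The narrow lists turned Gata2 (-0.0021) and Nfe2 (-0.16) by age in erythroid-marker cells, Zfpm1 (-0.26), Nfe2 (0.35) and Tal1 (0.11) by age in megakaryocyte-marker cells, and the age-by-class terms of Gata1 (0.034), Gata2 (-0.62), Klf1 (0.16) and Tal1 (0.30). Gfi1b by age in narrow lineage-negative cells had an adjusted p of 0.0498 (edgeR) in the version shown and was under 0.05 in 2 of the 6 versions. Over the narrow lists, 95 of 1238 settings changed the sign of a value, in 40 of 111 values. Among values larger than the spread between pools, Gata2 turned in erythroid-marker cells with all deposited barcodes (-0.19) and under 2 versions (-0.086 and -0.32), Gata1 in lymphoid-marker cells under 1 version (0.16) and by age in no-list cells under 3 versions (-0.11, -0.053 and -0.089). With a pool left out, Zfpm1 by age ran from -0.067 to 1.53 in lineage-negative, -0.078 to 1.90 in stem-marker and -0.10 to 1.20 in no-list cells, below 0 without young B, and its age-by-class term in megakaryocyte-marker cells from -1.03 to 0.92, above 0 without young A.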
